A study of Rattus norvegicus with 2 samples.

Results

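Potassium channel genes of rat C6 glioma cells were compared between wild-type C6 cells and tafazzin-deficient C6 TAZ cells. The genes were those measured under a single gene symbol made of Kcn, 1 letter and a number, such as Kcna1 or Kcnj10, which gave 81 of the 20669 genes with a symbol of their own on the array. C6 is an established rat glioma line, grown in DMEM with fetal bovine serum, and in C6 TAZ cells the acyltransferase tafazzin, which remodels the mitochondrial lipid cardiolipin, had been knocked out with CRISPR-Cas9. Both groups were C6 cells that differed in this genotype (WT and TAZ knockout), and the sources used here do not say whether C6 TAZ cells are 1 clone. For each genotype, RNA pooled from 3 cultures was hybridised to a single Clariom S rat array of Affymetrix. With 1 array for each genotype the spread between cultures was not measured, so that no difference has a replicate check and no p-value, SD or interval can be given between the conditions. The number of arrays limits the precision.

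Signals are given as log2 values, and a difference is the log2 signal in C6 TAZ minus that in C6, so that 1 stands for a doubling. Which array is which differs between the deposited tables. The names C6 and C6 TAZ of the workbook were used here. A second table, of values by sample, has identical pairs of values in 100% of the 23188 transcript clusters (probe sets of a gene) once its columns are exchanged, and in 1.16% as named. With the names of that second table, each difference below changes its sign. Signals of different genes come from different probes and were not read as amounts of RNA relative to each other. In these bulk samples, fewer cells that express a gene and less of its RNA per cell cannot be told apart.

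Potassium channels let potassium ions leave or enter the cell down their electrochemical gradient, and together they set the resting membrane potential. Voltage-gated channels open on depolarization, inward rectifiers (Kcnj genes) pass current more readily into the cell, tandem-pore channels (Kcnk genes) carry leak current, and the Kcnn and Kcnt channels open with intracellular calcium or sodium. Mature astrocytes rely on the inward rectifier Kcnj10, which takes up potassium released by neurons. In human gliomas the calcium-activated channel KCNN4 is known for its part in the volume changes of migrating cells, and the voltage-gated channels KCNH1 and KCNH2 are known from proliferating tumour cells.

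As a check of the knock-out, tafazzin (Taz) had log2 signals of 10.34 and 9.84 (difference −0.50), but the place of its probes relative to the edited part is unknown, so that this checks nothing about the genotype. As a check of the cells, 7 of 11 astrocyte markers had a mean log2 signal of at least 6 over both arrays, among them Vim, S100b and Gja1, while Slc1a3, Slc1a2, Aldh1l1 and Fabp7 were below it. Gfap, at 5.73 and 6.38, reached that mean through the C6 TAZ array, in which it is higher. Of all genes 54.3% reached the same mean, so that counts of this size do not identify a cell type. Of 11 markers of oligodendrocytes and Schwann cells, 7 had signal and 2 were higher by 2-fold or more in C6 TAZ. Of 10 neuron markers 5 had signal and none passed 2-fold, and of 9 markers of microglia Cd68 alone passed it (6.30 and 8.42). Of 6 endothelial markers Tek was lower (7.05 and 5.58), and of 6 fibroblast markers Col3a1 was higher (8.01 and 9.24). The log2 of the summed signal of the list went from 15.59 to 16.39 for oligodendrocytes and Schwann cells and from 13.67 to 13.62 for neurons. The part of such shifts in the differences of the potassium channel genes was not tested.

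Most potassium channel genes gave signals in the range that holds most odorant and pheromone receptor genes, which glioma cells are not expected to express. Of the 81 potassium channel genes, 7 had a mean log2 signal of at least 6 over both arrays (8.64%), and 74 lay below. The same signal was reached by 54.3% of all genes, and by 43 of 1204 olfactory and vomeronasal receptor genes of the nose (3.57%), whose 95th percentile was 5.87. The 7 genes were the voltage-gated Kcna1, Kcnd1, Kcnh6, Kcnh8 and Kcnq5, the calcium-activated Kcnn4 and the sodium-activated Kcnt1. Of these, 5 had a mean signal of at least 8, with Kcnt1 at 7.46 and Kcnh8 at 6.58 below that level. The highest mean of a receptor gene was 9.085, above the means of Kcnh6, Kcnd1, Kcnt1 and Kcnh8. A mean of at least 6 thus does not by itself show expression. The nearest gene outside the 7 was Kcna10 with a mean of 5.90, followed by the regulatory subunit gene Kcne2 with 5.83 and Kcnc4 with 5.80.

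**Figure D1:**
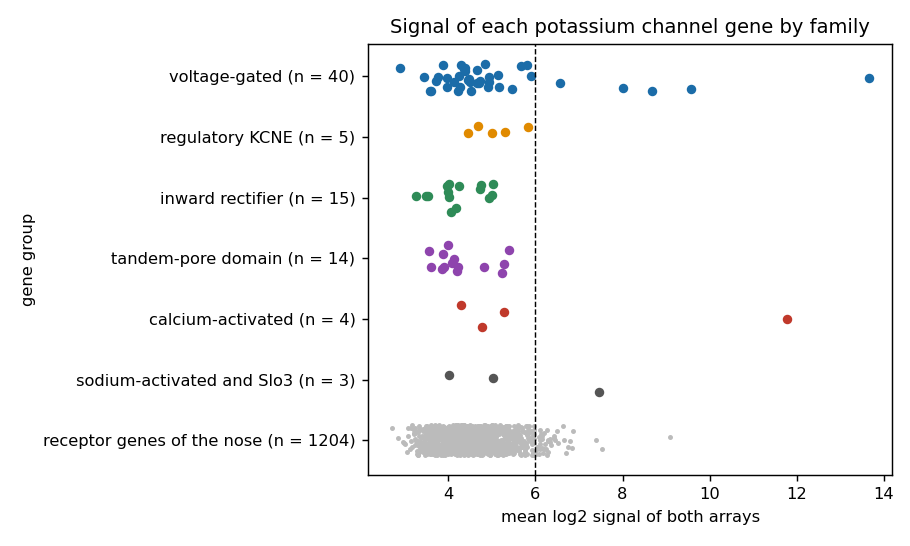
Mean log2 signal of both arrays (horizontal axis) for each of the 81 potassium channel genes by family, with 1204 olfactory and vomeronasal receptor genes in grey; each point is a gene, its height within a row is random, and the dashed line marks 6. All 15 inward rectifier and all 14 tandem-pore genes lie left of the line, and 5 of 40 voltage-gated genes lie right of it.

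Of the 7 genes with signal, the upstream sequence of 4 is shown, because these sequences let the starts of genes with signal be set beside those of relatives below 6. They are the 120 bases before the annotated start, from RefSeq on the GRCr8 assembly, and the start used in C6 cells was not measured. Capitals mark a GC box (GGGCGG, or CCGCCC on the other strand) or a CCAAT box (CCAAT, or ATTGG on the other strand), and no 2 of these overlap.
Kcnq5, chr9:31891282-31891401, minus strand: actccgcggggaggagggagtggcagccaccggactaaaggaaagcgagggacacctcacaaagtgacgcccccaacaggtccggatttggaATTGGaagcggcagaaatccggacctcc
Kcnh6, chr10:91449531-91449650, plus strand: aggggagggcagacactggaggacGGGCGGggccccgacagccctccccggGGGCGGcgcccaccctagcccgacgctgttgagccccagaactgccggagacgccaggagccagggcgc
Kcnt1, chr3:29081219-29081338, plus strand: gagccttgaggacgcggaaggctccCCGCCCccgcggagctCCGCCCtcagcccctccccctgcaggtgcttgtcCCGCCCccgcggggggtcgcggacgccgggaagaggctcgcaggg
Kcnh8, chr9:5742563-5742682, plus strand: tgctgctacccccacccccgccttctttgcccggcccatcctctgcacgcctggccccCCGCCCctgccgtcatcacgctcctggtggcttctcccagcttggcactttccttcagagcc

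A GC box, the letters bound by Sp factors, was found 2 times for Kcnh6, 3 times for Kcnt1 and 1 time for Kcnh8, and not in the window of Kcnq5. It was present in 23.7% of all 33469 windows of this length and in 30.8% of the 52 windows of 48 potassium channel genes below 6. Kcnq5 held a CCAAT box, as did 19.9% of all windows and 9.62% of those of the genes below 6. None of the 4 windows held a TATA box (TATAAA, or TTTATA on the other strand), which stood in 6.66% of all windows and 3.85% of those of the genes below 6. The share of G and C was 60.8% for Kcnq5, 68.3% for Kcnh8, 76.7% for Kcnh6 and 78.3% for Kcnt1, against a median of 53.3% over all windows and 63.8% over those of the genes below 6. A second annotated start of Kcnt1 held 1 GC box and 1 CCAAT box. Kcna1, Kcnd1 and Kcnn4 were not used here.

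Of the 7 genes with signal, 6 were lower in C6 TAZ and 1, Kcnh8, was higher, with a median difference of −0.46. Over all 81 genes the median was −0.02, with 35 higher, 43 lower and 3 equal. Among all 11218 genes with a mean signal of at least 6, 49.7% were lower in C6 TAZ, 49.2% were higher and the median difference was 0.00. Past 2-fold, Kcna1 and Kcnc4 were lower and no gene of the 81 was higher. Over all genes, 2.04% were lower and 2.31% higher by 2-fold or more, so that 2 of 81 lower genes is a share near that background. The shares were 2.41% lower and 2.94% higher among genes with signal, where Kcna1 alone counts, and 1.99% lower and 2.33% higher among the receptor genes. At 1.5-fold, 11 potassium channel genes were lower and 5 higher. At that threshold 8.95% of all genes were lower and 9.75% higher, against 9.41% and 10.6% of the genes with signal and 9.05% and 11% of the receptor genes.

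**Figure D2:**
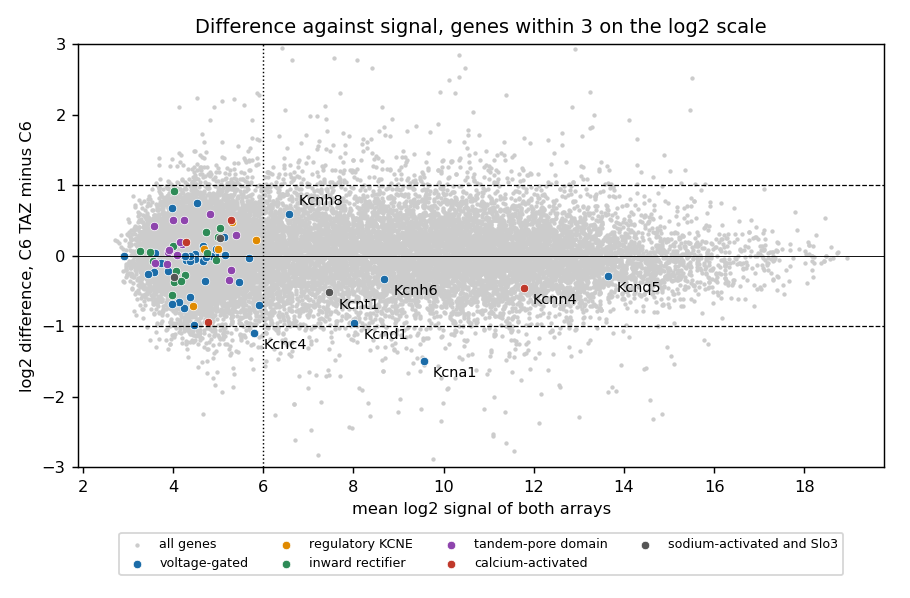
Log2 difference of C6 TAZ minus C6 (vertical axis) against the mean log2 signal of both arrays (horizontal axis), with all genes that differ by less than 3 in grey and potassium channel genes coloured by family; dashed lines mark 2-fold and the dotted line a signal of 6. Kcna1 is at −1.49 and Kcnc4 at −1.10, below the lower dashed line, and of the 7 genes right of the dotted line Kcnh8 alone lies above 0.

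Kcna1, which encodes a pore-forming subunit of delayed rectifier channels that is best known from axons, gave a log2 signal of 10.31 in C6 against 8.82 in C6 TAZ. The signal was thus above 5.87, the 95th percentile of the receptor genes, in both arrays and 2.81-fold lower in C6 TAZ (difference −1.49). Of the 11218 genes with signal, 70 had a difference as low or lower (0.624%). The Kcna1 gene stands between Kcna5 and Kcna6 in the order of protein-coding genes on rat chromosome 4. Kcna5 had a mean log2 signal of 3.89 (difference −0.22) and Kcna6 of 4.94 (difference 0.01), so that neither neighbour reached 6. The remaining 5 Kcna genes, for channels of the same subfamily, were also below a mean of 6, with differences between −0.74 for Kcna7 and 0.00 for Kcna4, whose signal was 4.23 in both arrays. Kcna3, a channel of T cells and of activated microglia, had log2 signals of 4.94 and 4.91.

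Kcnd1, the gene of an A-type channel that inactivates rapidly, gave log2 signals of 8.49 in C6 against 7.54 in C6 TAZ. It was 1.93-fold lower in C6 TAZ, just short of 2-fold, and 2.88% of the genes with signal had a difference as low or lower. The related Kcnd2 and Kcnd3 were below a mean of 6, at 4.89 and 4.99 and at 5.65 and 5.27 in C6 and C6 TAZ. Among the auxiliary subunits of A-type channels, Kcnip4, a calcium-binding protein that associates with Kcnd channels, went the other way with log2 signals of 8.06 and 8.54 (difference 0.48).

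Kcnq5, a channel gene of the M current that dampens excitability in neurons, reached 13.79 in C6 cells and 13.50 in C6 TAZ cells on the log2 scale. Both arrays were far above 5.87 and the difference of −0.29 was small, since 24.9% of the genes with signal were as low or lower. Of its relatives, Kcnq1 (3.77 and 3.67) and Kcnq3 (4.88 and 4.52) had mean signals below 6, with differences of −0.10 and −0.36.

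Among the ether-à-go-go family (Kcnh genes), Kcnh6 lay at 8.85 in C6 cells and at 8.52 in C6 TAZ cells (difference −0.33). Kcnh8 lay at 6.28 in C6 cells and at 6.87 in C6 TAZ cells (difference 0.59), 1.51-fold higher, with 10.6% of the genes with signal as high or higher. Its mean was the nearest of the 7 to the level of 6. Kcnh1 (4.32 and 4.26) and Kcnh2 (4.47 and 4.49), the 2 members known from human tumours, were below 5.87 in both arrays. The remaining members were below a mean of 6 and differed in both directions, with Kcnh5 at −0.98, Kcnh3 at 0.74 and Kcnh7 at 0.68.

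Kcnc4, of the Shaw subfamily of rapidly deactivating channels, gave a log2 signal of 6.35 in C6 against 5.25 in C6 TAZ. It was 2.14-fold lower in C6 TAZ, but passed 6 in the C6 array alone, and the signal of the C6 TAZ array was within the range of the receptor genes. Kcna10 had the same form, with 6.25 and 5.55. A minimum set on the brighter array would admit these 2 genes through the array in which they are higher, so they are not support for a direction. The other 3 Kcnc genes had mean signals below 6 and differences from −0.26 to 0.00.

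Of the remaining voltage-gated genes, the Kcnb, Kcnf, Kcng, Kcns and Kcnv members were all below a mean of 6. Kcnb genes encode pore-forming subunits, and Kcnf, Kcng, Kcns and Kcnv subunits are silent alone and modify Kcnb channels. Their differences ran from −0.66 for Kcng1 to 0.27 for Kcnf1. The 5 Kcne genes, which encode single-span regulatory subunits, were below 6 as well and ran from −0.71 for Kcne3 to 0.47 for Kcne4.

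Kcnn4, the intermediate-conductance calcium-activated channel, gave a log2 signal of 12.01 in C6 against 11.55 in C6 TAZ. It was well above 5.87 in both arrays and 1.38-fold lower in C6 TAZ (difference −0.46), with 14.5% of the genes with signal as low or lower. The small-conductance channels Kcnn1, Kcnn2 and Kcnn3 were below a mean of 6. Kcnn1 had log2 signals of 5.02 and 5.53, and Kcnn3 of 5.24 and 4.30 (difference −0.94). Kcnn2 was read from 2 clusters with differences of 0.16 and 0.23. The large-conductance channel gene Kcnma1, another calcium-activated channel of human gliomas, is outside the naming rule and had log2 signals of 3.84 and 3.94.

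Kcnt1, a channel that opens with intracellular sodium, gave log2 signals of 7.72 in C6 against 7.20 in C6 TAZ. The difference was −0.52, or 1.43-fold lower, and 11.9% of the genes with signal were as low or lower. Its relative Kcnt2 (4.17 and 3.87) and the sperm channel gene Kcnu1 (4.91 and 5.16) were below 6.

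**Figure D3:**
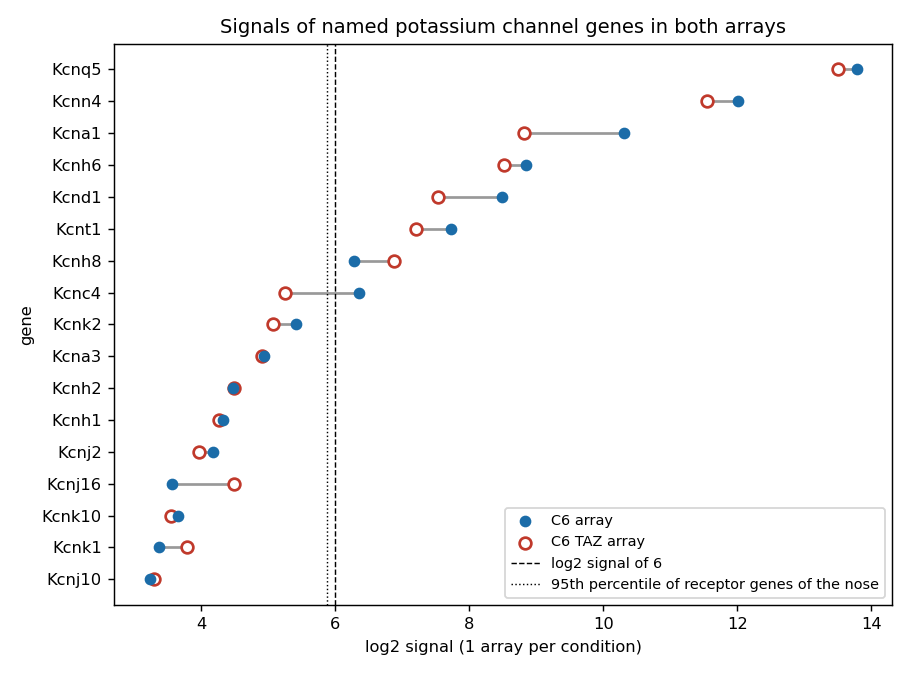
Log2 signal in the C6 array (filled) and the C6 TAZ array (open) for the 17 named potassium channel genes, with 1 array per condition and no error bar; the dashed line marks 6 and the dotted line 5.87, the 95th percentile of receptor genes of the nose. Kcnq5, Kcnn4, Kcna1, Kcnh6, Kcnd1 and Kcnt1 lie right of both lines with the open symbol to the left of the filled one, and Kcnj10 lies at 3.23 and 3.29.

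None of the 15 inward rectifier genes reached a mean of 6, and their highest mean was 5.04, that of Kcnj1, whose 2 clusters disagreed with differences of −0.06 and 0.83. Kcnj10, the main potassium channel of astrocytes, gave log2 signals of 3.23 in C6 against 3.29 in C6 TAZ, below the median of 4.46 of the receptor genes. Kcnj16, its partner in mixed channels, had 3.56 and 4.48. The difference of 0.92 was the highest of the 81 genes, yet both signals were in the range of the receptor genes. Kcnj2, a strong inward rectifier that neighbours Kcnj16 on chromosome 10, had 4.18 and 3.96. Subunits of channels gated by ATP (Kcnj8 and Kcnj11) and by G proteins (Kcnj3, Kcnj5, Kcnj6 and Kcnj9) were in the same range, with differences from −0.56 for Kcnj11 to 0.34 for Kcnj8.

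The 14 tandem-pore genes were also below 6, with the highest mean of 5.40 for Kcnk16. Kcnk2 and Kcnk10, which encode channels opened by stretch and by polyunsaturated lipids, had log2 signals of 5.42 and 5.07 and of 3.65 and 3.54. Kcnk1, a weak leak channel of astrocytes, had 3.36 and 3.78. Of the 14 genes, 10 were higher in C6 TAZ and 4 lower, within −0.35 and 0.59, and the signal of each was below 5.87 in both arrays.

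Over the 74 potassium channel genes below 6, the differences had a median of −0.005 and an SD of 0.39 across genes, with 34 higher, 37 lower and 3 equal. The 1161 receptor genes below 6 had an SD of 0.48. Their differences ran from −1.83 to 2.23, and those of the 74 potassium channel genes from −1.10 for Kcnc4 to 0.92 for Kcnj16, within that range. Probes of 1 gene show how far clusters disagree on the same 2 arrays, which leaves out the spread between cultures and between arrays. Among 374 genes with signal and 2 clusters, the differences of both clusters lay 0.21 apart at the median and 0.75 at the 90th percentile. The 7 potassium channel genes with signal have 1 cluster each, so that their differences, from −1.49 for Kcna1 to 0.59 for Kcnh8, have no such check. The differences of Kcnq5 and Kcnh6 were larger than the median gap of 0.21, and those of Kcna1 and Kcnd1 larger than the gap of 0.75. This does not show that any of them exceeds the spread between cultures, which was not measured.

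Genes that work with potassium channels were counted in the same way. Of 122 partner genes in 6 lists, 5 passed 2-fold in the higher direction (C6 TAZ above C6) and 0 in the lower, against 2.31% and 2.04% of all genes. At these shares few genes pass in lists of 14 to 26 genes, so that a count of 0 in a list says little. In the list of auxiliary subunits, 3 of 21 genes had a mean signal of at least 6. Besides Kcnip4 these were Kcnab1, a β subunit of Kcna channels, with log2 signals of 9.12 and 8.47 (difference −0.65), and Kcnab2, another one, with 6.54 and 6.90. Kcnab1 was thus lower on the same array as Kcna1, and Kcnab2 was higher on it. Of the genes with signal, 49.7% were lower in C6 TAZ by any amount and 9.41% by 1.5-fold or more. A direction shared by Kcnab1 and Kcna1 therefore says little, and a link between them was not tested. Lrrc38, an auxiliary subunit of the large-conductance channel, was higher by 1.23 at signals of 3.98 and 5.21, which are in the range of the receptor genes.

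The sodium-potassium pump builds up the potassium gradient. Its β subunit gene Atp1b3 had nearly equal log2 signals in both arrays, at 14.28 and 14.25. Fxyd5, a regulator of the pump, was at 10.38 and 11.11 (difference 0.73). Fxyd1 had the same difference at 5.95 and 6.68, but reached a mean of 6 through the C6 TAZ array, in which it is higher. Slc12a2, the cotransporter that loads cells with sodium, potassium and chloride, had 12.89 and 12.59. No gene of 26 in this list passed 2-fold, and over the 14 with signal the median difference was 0.17.

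Chloride channels move the anion that follows potassium when a cell changes its volume. Of 18 genes, Clcn4 (10.54 and 12.15, difference 1.61) and Clcn7 (10.37 and 11.59, difference 1.22) were higher by 2-fold or more in C6 TAZ. Both encode exchangers of endosomes or lysosomes. The other Clcn genes with signal did not pass 2-fold. Their differences were 0.03 for Clcn3, 0.06 for Clcn5, −0.31 for Clcn6 and 0.385 for Clcn2, so that the rise was not shared across the family. The volume-regulated channel genes Lrrc8a, Lrrc8b and Lrrc8d lay between 0.02 and 0.35, and Lrrc8c was at −0.51. The intracellular chloride channel genes Clic1 (14.66 and 13.88) and Clic4 (15.56 and 14.94) were lower by 0.78 and 0.62 on the log2 scale.

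Calcium entry opens Kcnn4, and none of the 23 genes of this list passed 2-fold. The store-operated channel Orai1 had log2 signals of 11.79 and 11.52. Its sensors Stim1 and Stim2 went in opposite directions, with differences of 0.45 and −0.51. The stretch-activated channel Piezo1 had 12.41 and 12.33, and the ATP receptor channel P2rx4 had 8.02 and 7.50.

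Proteins that hold Kcnj10 at the endfeet of astrocytes in the brain belong to the dystrophin complex. Of 14 such genes and partners, the syntrophin gene Sntb2 was higher by 1.24 (10.44 and 11.68), and no other passed 2-fold. The scaffold gene Dlg4, which clusters Kcna channels, was higher by 0.84 (10.43 and 11.27), while Agrn, the gene of the matrix protein agrin, was at −0.81 (9.01 and 8.20). The water channel Aqp4, which lies beside Kcnj10 in astrocytes, had 6.57 and 6.26, and the gap junction gene Gja1 had 13.18 and 12.64.

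**Figure D4:**
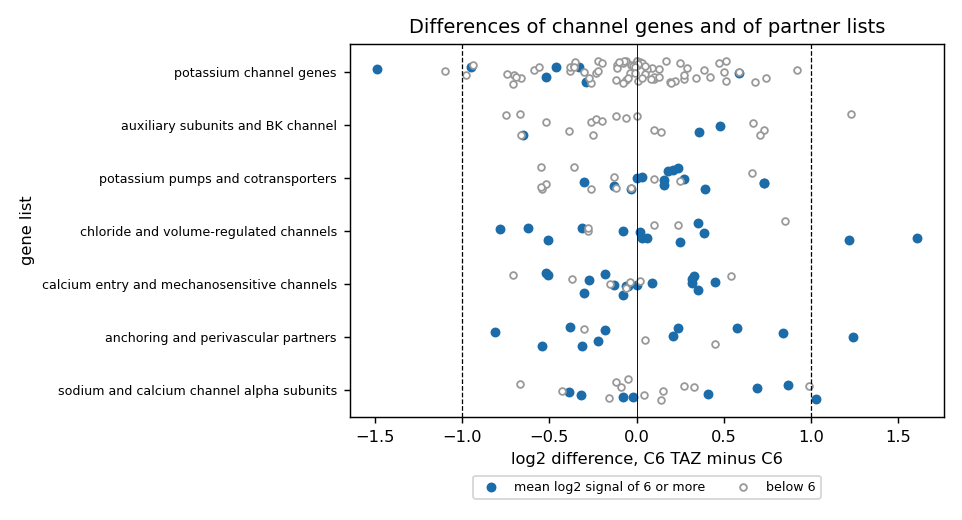
Log2 difference of C6 TAZ minus C6 (horizontal axis) for the 81 potassium channel genes and the 6 partner lists; each point is a gene, filled where its mean log2 signal is at least 6, and the dashed lines mark 2-fold. Kcna1 at −1.49 is the single filled point past the lower line, and Clcn4 at 1.61 lies farthest to the right.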

How the data were processed

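Log2 signals for each transcript cluster of 2 Affymetrix Clariom S rat arrays were deposited by the authors, made with Affymetrix Expression Console per the submitters' processing notes and annotated on rn6 per the file footer. The methods of summarization and normalization are not given in the sources used here. A deposited score, the authors' own fold changes, was not used. The methods name an analysis of variance at 1.5-fold, which 1 array per condition does not allow.

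Of 23188 clusters, the 21502 with 1 symbol were averaged per gene (20669 genes), and 1673 clusters with several symbols and 13 with none were left out. Differences were taken in Python 3.11.15 with pandas 2.3.3. The code was run on simulated data with known shifts and no noise, which checks its arithmetic alone. Genes count as with signal at a mean log2 signal of at least 6. All 81 potassium channel symbols matched RefSeq on GRCr8, which was used for gene order, and 52 matched its promoter table.

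The members and lists were chosen with earlier results of these data known. Named are the members with signal, those past 2-fold, 10 channels of glia and glioma, and the partner genes with the largest differences. Alternatives were other scalings, signal minimums, thresholds, cluster choices, naming rules and the names of the second table. Values of some genes are not reported here.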

Additional observations from a re-analysis of the deposited data

How the results depend on the processing

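With the names of the per-sample table, the median difference of the 7 potassium channel genes with signal was 0.46, 2 genes passed 2-fold in the higher direction and 0 in the lower, and Kcna1 was at 1.49 and Kcnc4 at 1.10. At 1.5-fold, 5 potassium channel genes were higher and 11 lower (9.75% and 8.95% of all genes), and 16 partner genes were higher and 9 lower. With a margin of 0.05 below 2-fold, 4 potassium channel genes were lower, since Kcnd1 and Kcnh5 were added. At 2-fold without the margin and among genes averaging 6 or more it was 1, Kcna1. With no minimum signal the median difference was −0.02, and with the minimum at 5 there were 22 genes with signal. Median centring, quantile normalization, the brightest cluster per gene and coding clusters alone moved the 17 named genes by at most 0.06 and left 7 potassium channel genes with signal, 0 higher and 2 lower by 2-fold. A rule taking all symbols that start with Kcn gave 10 genes with signal and a median of −0.40. No paired analysis was possible because each condition has 1 array. For the same reason no replicate could be left out. Signals below about 6 cannot be told from those of genes without expected expression.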

Other observations

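Sodium and calcium channels carry depolarizing current. Of 20 of their α subunit genes, 8 had a mean log2 signal of at least 6 over both arrays, as did 54.3% of all genes. The muscle sodium channel gene Scn4a was higher in C6 TAZ by 2-fold or more, at log2 signals of 5.95 and 6.98 (difference 1.03), and none was lower. Scn4a was below 6 in C6 and reached a mean of 6 through the C6 TAZ array, in which it is higher, so it is not support for a direction. The calcium channel genes Cacna1i (6.40 and 7.27, difference 0.87) and Cacna1b (8.15 and 8.84, difference 0.69) were higher by less than 2-fold. Cacna1a had a difference of 0.99 at a mean signal below 6 (5.36 and 6.35), and Scn1a one of −0.32 (8.46 and 8.14). Over the 8 genes with signal, 4 were higher and 4 lower, with a median difference of 0.20.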
